A study of Mus musculus with 8 samples.

Results

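Expression of 10 genes of the Gadd45 family and the p53 pathway was followed across lines and treatments of a mouse neuroblastoma: the 3 growth arrest and DNA damage genes Gadd45a, Gadd45b and Gadd45g, the tumour suppressor gene Trp53, and the p53 targets Mdm2, Ccng1, Bax, Bbc3, Sesn1 and Phlda3. They were chosen by name, as the array probes whose RefSeq accession belongs to 1 of these 10 genes, out of 20151 genes with a symbol on the array and 26259 features that were tested. Each of the 10 genes had 1 probe, and every one of these probes was well above background on all 8 arrays. RNA came from 4 groups of 2 arrays each: the ChAT-expressing 2/4 clone of N18TG2 under retinoic acid (RA), the 2/4 clone untreated, the N18TG2 parental cells under RA, and the N18TG2 parental cells untreated. ChAT is choline acetyltransferase, the enzyme that makes acetylcholine, and RA is a vitamin A acid that makes many neuroblastoma lines stop dividing and grow neurites. RA was used at 1 µM in medium with 1% serum, whereas growth medium held 10% serum, and the clone alone was grown under G418 at 200 µg/mL. The length of the RA treatment, the serum of the untreated cells and the culture behind each array are not given. The p-values rest on the spread between the 2 arrays of a group, pooled over the 4 groups and drawn toward that of other genes. That spread may be technical. The ChAT-expressing line is 1 clone, so a difference from the parental cells cannot be told apart from the clone's own history and its selection drug.

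The protein p53 is a transcription factor that DNA damage and other stresses stabilise, and it switches on genes that halt the cell cycle, repair DNA or start cell death. Its target Mdm2 is a ubiquitin ligase that marks p53 for destruction, which closes a feedback loop. The Gadd45 proteins are small acidic nuclear proteins that bind PCNA, the Cdk1 and cyclin B1 complex and the stress kinase Map3k4, and they also take part in active DNA demethylation. Gadd45a is a direct p53 target, Gadd45b is mainly driven by NF-kappaB and TGF-beta signals, and Gadd45g responds to cytokines and marks newly forming neurons in embryos.

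A level here is the log2 of a probe's background-subtracted intensity over the 75th percentile of its array, so 0 stands for that percentile, and levels are compared only within a gene. That percentile ran between 264.8 and 1264 over the arrays. The share of probes well above background was 71.9% on replicate 1 of the clone under RA and 47.8% to 62.8% on the other 7 arrays. The replicates of the clone under RA also correlated least across genes, at r = 0.962 against 0.983 to 0.987 in the other groups, so calls that rest on that array are also given without it. All arrays lay on 1 slide, with parental RA and untreated clone arrays in its row 1 and the other groups in its row 2. Slide row and treatment thus cannot be told apart within a line, nor slide row and line within a treatment. The difference between the RA responses sets row 2 against row 1, so it cannot be told apart from slide row. The row balances only in the averages. The labels name hippocampus in the extraction protocol. Of 12 hippocampal neuron markers, at most 4 were well above background on both arrays of a group. Neurod6, Neurod2, Prox1 and Dsp were so on no array. The summed linear levels of the hippocampal markers were 8.65 to 8.99 in the clone under RA and 15.2 to 16.3 in the untreated clone. In parental cells they were 5.92 to 7.94 under RA and 6.53 to 7.04 untreated. All 12 sympathoadrenal neuroblast markers were above background in every group, with summed linear levels of 546 to 623 in the clone under RA, 334 to 339 in the untreated clone, 98.3 to 145 in parental cells under RA and 226 to 303 in untreated parental cells. The summed levels of Schwann cell and other glial markers lay between 1.38 and 2.76 in all groups. Fibroblast marker sums were 6.58 to 7.79 in the clone under RA and 9.46 to 14.3 in the untreated clone, and 4.46 to 6.03 in parental cells under RA and 10.9 to 19.1 in untreated parental cells. Those of blood vessel, microglia and blood markers were 14.6 to 36.1 in the clone under RA and 15.9 to 21.8 in the other groups. The neuroblast sums moved with line and treatment, the fibroblast sums with treatment, and the hippocampal sums were higher in the clone. Linear sums weigh bright markers most, and single markers went both ways. Of the 12 neuroblast markers, 1 was called higher and 1 lower in the clone without RA (9.81% of all features called). Under RA 7 were called higher and 1 lower (23.1%). For RA in the clone 1 fibroblast marker was called higher and 1 lower (4.63%). In the untreated clone 8 of 12 hippocampal markers were above background on neither array. The part of these sums in the results below was not tested. The level of Chat itself was 1.10 and -2.58 in the clone under RA, -3.73 and -2.71 in the untreated clone, -3.22 and -5.06 in parental cells under RA and -2.63 and -4.57 in untreated parental cells, so the untreated lines overlapped. Whether this probe reads the ChAT construct of the clone is not given.

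Because Gadd45g and Gadd45b carried the largest line differences of the set, the 250 bases before the start of each Gadd45 gene are shown, from RefSeq on GRCm38.p6, 5′ to 3′ on the gene's strand. Capitals mark matches, on either strand, to the TATA box TATAAA, the CCAAT box CCAAT, the GC box GGGCGG, the E-box CACGTG and the p53 half-site, none of which overlapped another here.
Gadd45a, chr6:67037408-67037657, minus strand: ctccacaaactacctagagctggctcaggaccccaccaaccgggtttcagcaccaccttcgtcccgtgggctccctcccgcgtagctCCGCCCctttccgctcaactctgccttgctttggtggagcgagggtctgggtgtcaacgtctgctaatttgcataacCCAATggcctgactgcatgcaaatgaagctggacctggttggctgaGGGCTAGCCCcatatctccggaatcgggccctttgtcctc
Gadd45b, chr10:80929841-80930090, plus strand: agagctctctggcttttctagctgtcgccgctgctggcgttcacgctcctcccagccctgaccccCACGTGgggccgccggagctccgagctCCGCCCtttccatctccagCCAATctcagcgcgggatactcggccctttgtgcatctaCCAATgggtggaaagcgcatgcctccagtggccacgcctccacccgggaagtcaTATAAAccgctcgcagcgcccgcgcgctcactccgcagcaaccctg
Gadd45g, chr13:51846425-51846674, plus strand: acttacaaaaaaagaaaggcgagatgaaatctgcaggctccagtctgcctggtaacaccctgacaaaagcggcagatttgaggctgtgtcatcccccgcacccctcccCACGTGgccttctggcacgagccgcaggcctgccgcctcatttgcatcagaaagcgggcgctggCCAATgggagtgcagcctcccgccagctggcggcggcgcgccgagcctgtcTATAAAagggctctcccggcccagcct
A CCAAT box lay in all 3 windows and in 33.8% of all 32851 RefSeq windows of this length. The TATA box and the E-box lay in the windows of Gadd45b and Gadd45g, and were held by 12.4% and 6.02% of all windows. Among the other genes of the set, the TATA box also lay in a window of Trp53, and the E-box in windows of Bax and Bbc3. The p53 half-site lay in the Gadd45a window, 31 to 40 bases before the start, and in 6 of the 13 windows that RefSeq gives for the 10 genes, against 7.13% of all windows; the other 5 genes with a match were Bax, Ccng1, Mdm2, Sesn1 and Trp53. Neither the nuclear receptor half-site AGGTCA, held by 14.0% of all windows, nor the cyclic AMP response element TGACGTCA, held by 1.55%, lay in any of the 13. GC content was 59.2% for Gadd45a, 65.2% for Gadd45b and 62.0% for Gadd45g, and the median over all windows was 52.4%. These matches are descriptions of the letters in the windows.

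The regulators at the head of the pathway did not pass the test in any comparison. Trp53, which encodes p53, had levels of -1.02 and 0.18 in the clone under RA, -0.14 and -1.11 in the untreated clone, 0.26 and 2.76 in parental cells under RA and 1.57 and 0.10 in untreated parental cells. Replicates thus lay 0.97 to 2.50 apart, more than for any other of the 10 genes, while its 2 spots on an array differed by only 0.00756 to 0.148. The clone differed from parental cells by -1.45 ± 0.91 without RA (limma log2 difference ± SE, adjusted p = 0.400) and by -1.93 ± 0.91 under RA (adjusted p = 0.174). The 95% intervals, -3.61 to 0.70 and -4.09 to 0.22, leave room for large differences in either line-to-line comparison. Mdm2 was more even, at 5.11 and 5.34 in the clone under RA, 5.34 and 5.67 in the untreated clone, 6.04 and 5.44 in parental cells under RA and 6.10 and 5.50 in untreated parental cells. Its line difference was -0.30 ± 0.35 without RA (95% interval -1.12 to 0.53, adjusted p = 0.674) and -0.52 ± 0.35 under RA (-1.34 to 0.31, adjusted p = 0.326). Its RA difference was -0.28 ± 0.35 in the clone (-1.11 to 0.54) and -0.06 ± 0.35 in parental cells (-0.89 to 0.77), so no change of Mdm2 was detectable at this precision.

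**Figure D1:**
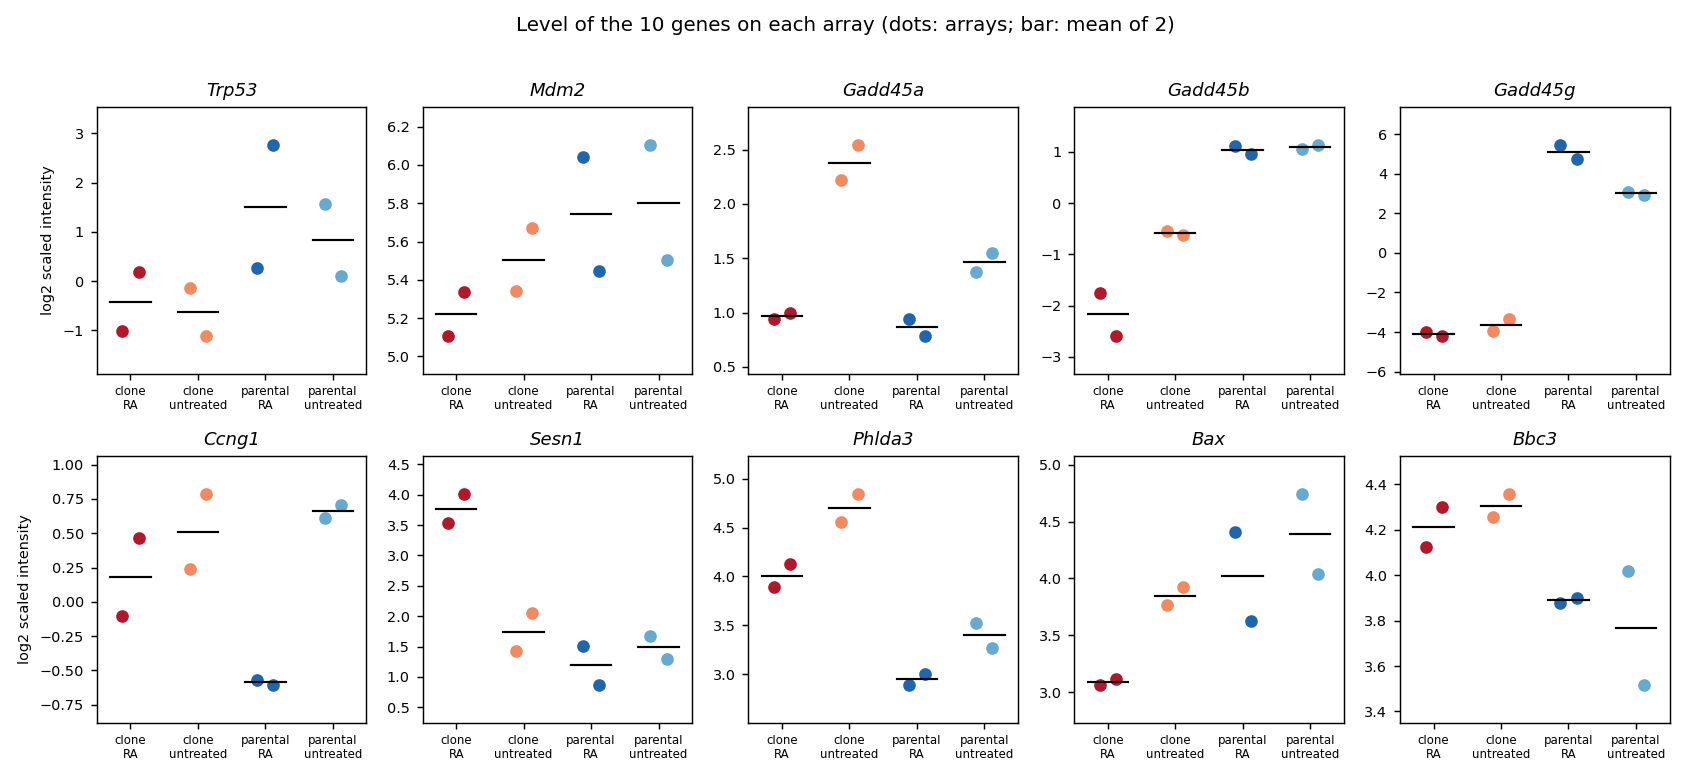
Level of each of the 10 genes on every array, as log2 intensity scaled to the array's 75th percentile, for the clone and the parental cells under RA and untreated; dots are single arrays, bars the mean of 2, and each panel has its own axis. Gadd45g lies between -4.17 and -3.36 on the 4 clone arrays and between 2.92 and 5.44 on the 4 parental arrays.

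Of the Gadd45 genes, Gadd45g was the most different between the lines. Its level was -3.99 and -4.17 in the clone under RA and -3.96 and -3.36 in the untreated clone, against 5.44 and 4.75 in parental cells under RA and 3.09 and 2.92 in untreated parental cells. All 4 clone arrays lay far below all 4 parental arrays, and its background-subtracted intensity was 29.6 to 71.7 in the clone and 2259 to 34067 in parental cells. The arrays measured bulk RNA, in which fewer expressing cells and less RNA per cell cannot be told apart. Gadd45g was lower in the clone, at a log2 difference of -6.67 ± 0.35 without RA (102-fold, 95% interval -7.50 to -5.84, adjusted p = 0.000186) and -9.18 ± 0.35 under RA (-10.0 to -8.35, adjusted p = 4.52e-05). Over 17 alternatives the values ran from -6.97 to -5.58 without RA and from -10.03 to -7.94 under RA, with the smallest sizes under normexp background correction. In parental cells both RA arrays were above both untreated ones, a difference of 2.09 ± 0.35 that just missed the threshold of 0.05 (adjusted p = 0.0502, higher on 2 of 2 arrays). In the clone the RA difference was -0.42 ± 0.35 (adjusted p = 0.533). The RA response of the clone minus that of parental cells was -2.51 ± 0.50 (adjusted p = 0.105), so a difference between the responses was not established.

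Gadd45b, which links cytokine and NF-kappaB signals to survival, was lower in the clone and lower still there under RA. Its level was -1.76 and -2.58 in the clone under RA and -0.54 and -0.62 in the untreated clone, against 1.11 and 0.95 in parental cells under RA and 1.06 and 1.13 in untreated parental cells. The groups were ordered without overlap within the clone and between the lines, while the parental arrays all lay between 0.95 and 1.13. The clone differed by -1.67 ± 0.33 without RA (adjusted p = 0.0231) and by -3.20 ± 0.33 under RA (adjusted p = 0.00104). It was lower under RA in the clone, at a log2 difference of -1.59 ± 0.33 (adjusted p = 0.0465, or 0.0523 with slide side as a block), and the difference in parental cells was -0.07 ± 0.33 (95% interval -0.85 to 0.72, adjusted p = 0.963). The difference between the 2 responses, -1.52 ± 0.47, did not pass (adjusted p = 0.220).

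Gadd45a, the family member described above as a direct p53 target, had the opposite order of the lines without RA. Its level was 0.94 and 0.99 in the clone under RA, 2.22 and 2.54 in the untreated clone, 0.94 and 0.79 in parental cells under RA and 1.37 and 1.55 in untreated parental cells. Both untreated clone arrays were above all others, and the lines overlapped under RA. Gadd45a was lower under RA in the clone, at a log2 difference of -1.41 ± 0.27 (adjusted p = 0.0363), and the parental difference was -0.60 ± 0.27 (adjusted p = 0.377). Averaged over both lines the RA difference was -1.01 ± 0.19 (adjusted p = 0.0319), the 1 call among the 10 genes for that average, for which 5.83% of all features were called, 3.13% higher and 2.7% lower. The line difference without RA, 0.92 ± 0.27, did not pass (adjusted p = 0.0826), nor did the 0.10 ± 0.27 under RA (adjusted p = 0.820).

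Of the targets that act on growth and survival signals, Phlda3 was higher in the clone with and without RA, and Sesn1 was higher in the clone under RA. Sesn1 encodes sestrin 1, a stress protein that restrains the growth kinase complex mTORC1. Its level was 3.54 and 4.01 in the clone under RA, 1.43 and 2.05 in the untreated clone, 1.52 and 0.87 in parental cells under RA and 1.67 and 1.30 in untreated parental cells. Only the 2 arrays of the clone under RA stood above the rest, and the other 6 ran from 0.87 to 2.05 with the lines overlapping. Sesn1 was higher under RA in the clone by 2.04 ± 0.38 (adjusted p = 0.0349), against a difference of -0.29 ± 0.38 in parental cells (95% interval -1.18 to 0.60, adjusted p = 0.812). Under RA the clone was higher than parental cells by 2.58 ± 0.38 (adjusted p = 0.00391), and without RA the difference was 0.25 ± 0.38 (adjusted p = 0.747). The difference between the RA responses, 2.33 ± 0.53, did not pass (adjusted p = 0.133).

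Phlda3 encodes a small lipid-binding protein that competes with the survival kinase Akt for the membrane. Its level was 3.89 and 4.12 in the clone under RA, 4.55 and 4.84 in the untreated clone, 2.89 and 3.00 in parental cells under RA and 3.52 and 3.27 in untreated parental cells. Every clone array was above every parental array. The clone was higher by 1.30 ± 0.27 without RA (adjusted p = 0.0281) and by 1.06 ± 0.27 under RA (adjusted p = 0.0326). RA arrays lay below untreated ones in both lines, with differences of -0.69 ± 0.27 in the clone and -0.45 ± 0.27 in parental cells, and neither passed (adjusted p = 0.204 for the clone and 0.548 for parental cells).

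Ccng1, which encodes cyclin G1, a p53 target that steers a phosphatase to Mdm2, was lowest in parental cells under RA. Its level was -0.10 and 0.47 in the clone under RA, 0.24 and 0.78 in the untreated clone, -0.57 and -0.60 in parental cells under RA and 0.61 and 0.70 in untreated parental cells. The clone groups overlapped each other, and the parental groups did not. In the clone the RA difference was -0.33 ± 0.32 (adjusted p = 0.600). In parental cells it was -1.25 ± 0.32 (adjusted p = 0.134), and Ccng1 passed in no comparison. The line difference was 0.77 ± 0.32 under RA (adjusted p = 0.134), where both clone arrays were above both parental ones, and -0.15 ± 0.32 without RA (adjusted p = 0.834).

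The death genes of the set did not pass either. Bax, the pore-forming protein of the mitochondrial outer membrane, had levels of 3.07 and 3.12 in the clone under RA, 3.77 and 3.92 in the untreated clone, 4.41 and 3.63 in parental cells under RA and 4.74 and 4.04 in untreated parental cells. Both clone RA arrays lay below all others, and the parental replicates were 0.70 to 0.78 apart. Its line difference was -0.54 ± 0.37 without RA (adjusted p = 0.448) and -0.93 ± 0.37 under RA (adjusted p = 0.122). Bbc3, which encodes the BH3-only protein PUMA, stayed within a narrow band of 4.13 and 4.30 in the clone under RA, 4.26 and 4.36 in the untreated clone, 3.88 and 3.90 in parental cells under RA and 4.02 and 3.52 in untreated parental cells. All clone arrays were above all parental arrays, but the differences were 0.54 ± 0.28 without RA (95% interval -0.13 to 1.21, adjusted p = 0.311) and 0.32 ± 0.28 under RA (-0.35 to 0.99, adjusted p = 0.451).

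**Figure D2:**
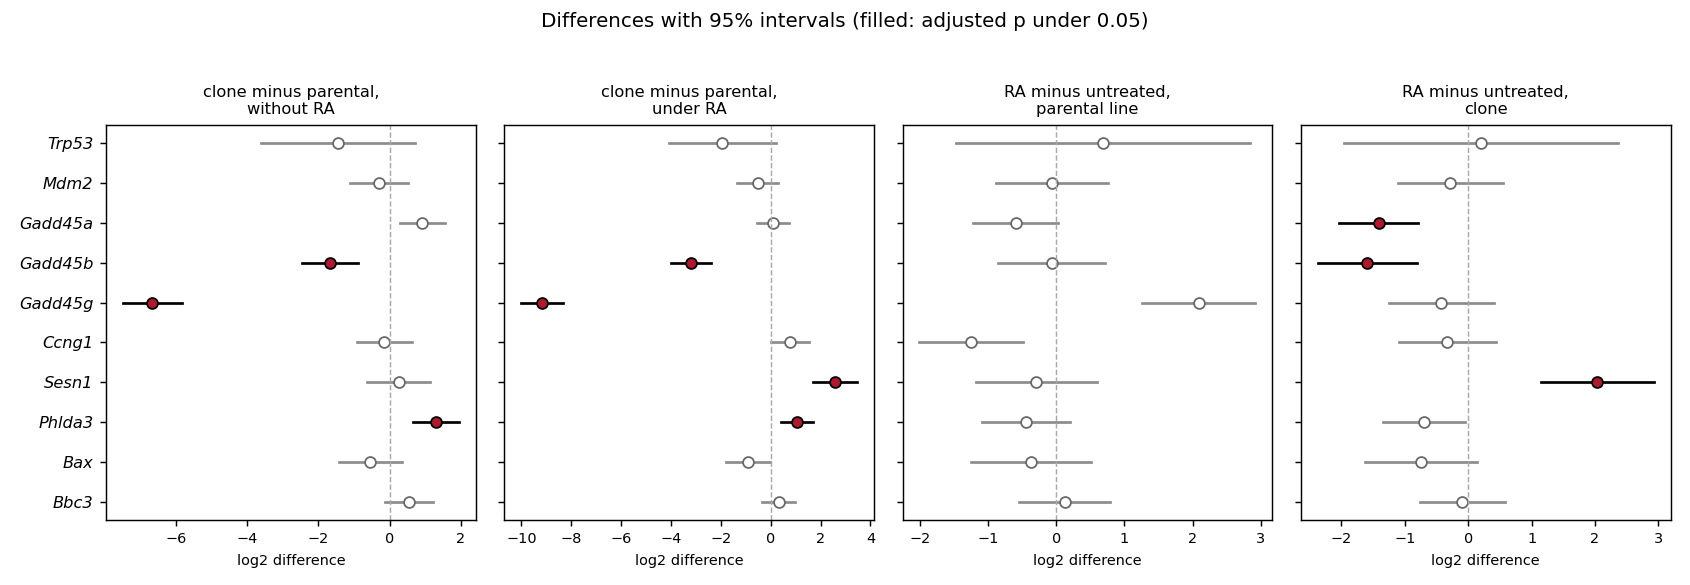
Log2 differences of the 10 genes with 95% intervals for the clone against parental cells, without RA and under RA, and for RA against untreated, in each line; filled points passed an adjusted p under 0.05, and each panel has its own axis. Gadd45g reaches -9.18 between the lines under RA, and Mdm2, Ccng1, Bax, Bbc3 and Trp53 have no filled point.

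Counted over the set, 3 of 10 genes passed for the clone against parental cells without RA (Phlda3 higher, Gadd45b and Gadd45g lower), where 9.81% of all 26259 features did, 6.12% higher and 3.69% lower. Under RA 4 of 10 passed (Sesn1 and Phlda3 higher, Gadd45b and Gadd45g lower), where 23.1% of all features did, 12.9% higher and 10.2% lower. For RA in the clone 3 of 10 passed (Sesn1 higher, Gadd45a and Gadd45b lower), against 4.63% of all features, 2.57% higher and 2.05% lower. That share itself fell without either untreated clone array, either untreated parental array or replicate 1 of the clone under RA. It rose without replicate 2 of that group. For RA in parental cells limma called 0 of 10, where 1.12% of all features were called, 0.526% higher and 0.59% lower. At an unadjusted p under 0.05 there were 2 of 10 genes there, beside 3787 of all 26259 features. For the difference between the RA responses limma also called 0 of 10, where 0.206% of all features were called, 0.122% higher and 0.0838% lower. There 3 of 10 genes, beside 3637 of all 26259 features, had an unadjusted p under 0.05. Averaged over both treatments, 4 of 10 differed between the lines (Sesn1 by 1.42 ± 0.27, Phlda3 by 1.18 ± 0.19, Gadd45b by -2.43 ± 0.24 and Gadd45g by -7.92 ± 0.25), where 27.7% of all features did, 16.1% higher and 11.6% lower. The median difference of the 10 genes was -0.22 without RA and -0.21 under RA between the lines, beside 0.11 over all features in both. For RA it was -0.38 in the clone and -0.18 in parental cells, beside 0.02 over all features in both.

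Several of these calls ended when single arrays were left out in turn. Each omission also takes a residual degree of freedom from every comparison, so an ended call does not show that a single array made the difference. The range of the share of all features called under omission is given below. The line calls of Gadd45b and Phlda3 without RA ended without any 1 of the 4 untreated arrays, at -1.71 to -1.63 for Gadd45b (adjusted p = 0.116 to 0.151) and 1.16 to 1.45 for Phlda3 (adjusted p = 0.105 to 0.197). The RA call of Gadd45a in the clone ended without any array but replicate 2 of the clone under RA, at -1.58 to -1.25 (adjusted p = 0.0502 to 0.255), and that of Gadd45b without any array but replicate 1 of that group, at -1.63 to -1.18 (adjusted p = 0.0722 to 0.253). The RA call of Sesn1 in the clone ended without either untreated clone array, either untreated parental array or replicate 1 of the clone under RA, at 1.72 to 2.35 (adjusted p = 0.0581 to 0.185). The call of Phlda3 under RA ended without any 1 of the 8 arrays, at 0.94 to 1.18 (adjusted p = 0.0577 to 0.0954). The average RA call of Gadd45a ended without any array but replicate 2 of the clone under RA, at -1.09 to -0.92 (adjusted p = 0.0603 to 0.149). The near miss of Gadd45g for RA in parental cells passed without either array of the clone under RA (2.09, adjusted p = 0.0350). The average line difference of Trp53 passed without replicate 1 of the parental cells under RA, at -2.32 (adjusted p = 0.0350), and that of Bax without replicate 2 of that group, at -0.93 (adjusted p = 0.0492). Without replicate 1 of the clone under RA, the RA differences in the clone were -1.39 for Gadd45a (adjusted p = 0.109) and 2.27 for Sesn1 (adjusted p = 0.0581), which then missed the threshold, and -2.002 for Gadd45b (adjusted p = 0.0426), which did not. Without that array the line differences under RA stayed called for Gadd45b, Gadd45g and Sesn1, and Phlda3 missed at 1.18 (adjusted p = 0.0686). Without it the average RA difference of Gadd45a was -0.99 (adjusted p = 0.0603), and that of Gadd45b passed at -1.03 (adjusted p = 0.0464). Each side of the slide held 1 array of each group, and within the sides the line difference of Gadd45g was -7.05 and -6.28 without RA and -9.44 and -8.92 under RA. For Gadd45b it was -1.59 and -1.75 without RA and -2.86 and -3.53 under RA. For Sesn1 the clone's RA difference was 2.11 and 1.96 within the sides, for Gadd45a it was -1.28 and -1.55, and for Gadd45b it was -1.22 and -1.96.

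The wider p53 network was described with 4 lists. Of 40 other known p53 target genes, 34 were tested. Between the lines, 5 were higher and 4 lower in the clone without RA, and 5 higher and 9 lower under RA (26.5% and 41.2% of those tested, beside 9.81% and 23.1% of all features). The median was 0.03 without RA and -0.33 under RA. RA called 0 higher and 3 lower in the clone (8.82%, beside 4.63%) and 0 higher and 1 lower in parental cells (2.94%, beside 1.12%). Without replicate 1 of the clone under RA, fewer of the list were called between the lines under RA and for RA in the clone. The share of all features called also fell in both. Trp53i11, a p53-inducible gene, had levels of 4.68 and 5.18 in the clone under RA and 5.40 and 5.24 in the untreated clone, against -2.29 and -1.72 in parental cells under RA and 0.72 and 0.39 in untreated parental cells. It was higher in the clone by 4.76 ± 0.33 without RA (adjusted p = 0.000423) and by 6.94 ± 0.33 under RA (adjusted p = 7.97e-05), and it was lower under RA in parental cells, at a log2 difference of -2.56 ± 0.33 (adjusted p = 0.0224). Cyfip2, a partner of the actin-regulating WAVE complex, was higher in the clone by 3.27 ± 0.32 without RA (adjusted p = 0.00125) and 4.99 ± 0.32 under RA (adjusted p = 0.000188). Apaf1, the scaffold of the apoptosome, was lower in the clone, at a log2 difference of -2.34 ± 0.45 without RA (adjusted p = 0.0210). Fas, a death receptor, was not well above background on any clone array. It was called lower in the untreated clone than in untreated parental cells, where 1 of 2 arrays measured it (adjusted p = 0.00926). Its bound of 1.76-fold averaged both of these parental arrays, so it rests partly on an unmeasured spot and is not firm. Ephx1, an epoxide hydrolase, was higher in the clone under RA by 3.16 ± 0.32 (adjusted p = 0.000969).

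Cdkn1a, which encodes p21, the main cell cycle inhibitor downstream of p53 and a Gadd45 partner, was ordered differently by RA in the 2 lines. Its level was 0.21 and 0.17 in the clone under RA, 2.66 and 2.80 in the untreated clone, 3.29 and 3.63 in parental cells under RA and 2.29 and 1.42 in untreated parental cells. RA arrays were below untreated ones in the clone and above them in parental cells, without overlap in either line. It was lower under RA in the clone, at a log2 difference of -2.54 ± 0.35 (adjusted p = 0.0210), and the parental difference was 1.61 ± 0.35 (adjusted p = 0.0889). The difference between the responses was -4.15 ± 0.49 (adjusted p = 0.0417), which held in 6 of 16 alternatives. This difference cannot be told apart from slide row. Under RA Cdkn1a was lower in the clone than in parental cells, at a log2 difference of -3.27 ± 0.35 (limma adjusted p = 0.00114). That call held in all 17 alternatives. Without RA the line difference was 0.88 ± 0.35 (adjusted p = 0.186). Slide row and line cannot be told apart in either of these. Gls2, a mitochondrial glutaminase, and Gtse1, a p53-binding protein of dividing cells, were also lower in the clone under RA than untreated, at log2 differences of -2.02 ± 0.27 (adjusted p = 0.0203) and -1.47 ± 0.28 (adjusted p = 0.0363). Without replicate 1 of the clone under RA, Gls2 kept its call (adjusted p = 0.0449), as did Cdkn1a (0.0431), while Gtse1 missed at -1.38 (0.117), and with slide side as a block Gtse1 missed too (0.0503). Averaged over both lines, Dcxr, a sugar reductase, was lower under RA, at a log2 difference of -1.06 ± 0.23 (limma adjusted p = 0.0438). That call ended without replicate 1 of the clone under RA, at -1.09. The mean level of Dcxr was -4.07 under RA and -3.69 untreated in the clone, and -3.94 and -2.19 in parental cells. The gap between the means was thus larger in parental cells.

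Of 22 family members and regulators of p53, all were tested. For the line without RA, RA in the clone and RA in parental cells 0 were called, beside 9.81%, 4.63% and 1.12% of all features. At an unadjusted limma p under 0.05 there were 1, 4 and 1 of the 22, in that order. Among all 26259 features there were 6237, 5664 and 3787. Under RA, where 23.1% of all features were called, only Chek2 of the 22, a checkpoint kinase that phosphorylates p53, was called, at -1.39 ± 0.40 in the clone against parental cells (adjusted p = 0.0484), with an adjusted p of 0.0458 without replicate 1 of the clone under RA and 0.0616 with slide side as a block. Ppp1r13b, the p53 cofactor ASPP1, was higher in the clone by 0.87 ± 0.20 averaged over treatments (adjusted p = 0.0170).

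Of 20 Gadd45-binding proteins and stress MAP kinase genes, 19 were tested, and 4 were higher and 0 lower in the clone without RA, 21.1% beside 9.81% of all features. Under RA 4 were higher and 7 lower, 57.9% of those tested beside 23.1% of all features. Fewer of the list, and a smaller share of all features, were called there without replicate 1 of the clone under RA. The genes called higher without RA were all kinases of the stress pathway. Mapk13 (p38 delta) differed by 2.14 ± 0.34 (adjusted p = 0.0102), Map2k7, the kinase upstream of JNK, by 2.10 ± 0.51 (adjusted p = 0.0461), Mapk9 (JNK2) by 1.35 ± 0.30 (adjusted p = 0.0338) and Mapk10 (JNK3) by 1.31 ± 0.30 (adjusted p = 0.0396). Under RA Mapk10 had levels of 3.58 and 3.22 in the clone against 0.33 and -0.22 in parental cells, a difference of 3.34 ± 0.30 (adjusted p = 0.000619). Pcna, the replication clamp that Gadd45 proteins bind, was lower in the clone under RA, at a log2 difference of -1.59 ± 0.27 (adjusted p = 0.00661). RA in the clone called 1 higher and 3 lower, 21.1% beside 4.63% of all features. Map3k5 (ASK1) was higher by 2.01 ± 0.34 (adjusted p = 0.0294), and lower were Cdkn1a and the mitotic pair Cdk1, at -1.40 ± 0.27 (adjusted p = 0.0385), and Ccnb1, at -1.52 ± 0.32 (adjusted p = 0.0467). Without replicate 1 of the clone under RA, Cdkn1a alone of these 4 kept its call, and Map3k5 (adjusted p = 0.0566), Cdk1 (0.0873) and Ccnb1 (0.152) missed. Ccnb1 also missed with slide side as a block (0.0635). The list median for RA in the clone was -0.38, beside 0.02 over all features.

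Of 17 further genes of the Bcl-2 family, 14 were tested. Without RA 2 were higher and 1 lower in the clone (21.4%, beside 9.81% of all features). Under RA 5 were higher and 2 lower (7 of 14 tested, beside 23.1%). Most of these calls under RA ended without replicate 1 of the clone under RA, where the share of all features called also fell. Bcl2l11, which encodes the BH3-only death protein BIM, had levels of -1.78 and -2.97 in the clone under RA and -2.22 and -2.46 in the untreated clone, and was not well above background on any parental array. It was at least 6.75-fold higher in the clone without RA (limma adjusted p = 0.00330) and at least 11.3-fold higher under RA (adjusted p = 0.00118). These adjusted p values test the readings, unmeasured parental ones included, and not the bounds. The gene passed the filter on dim probes through the clone arrays alone. The survival gene Bcl2 was also higher in the clone, by 1.43 ± 0.29 without RA (adjusted p = 0.0241) and 1.15 ± 0.29 under RA (adjusted p = 0.0291), while the BH3-only gene Bmf was lower without RA, at -1.997 ± 0.31 (adjusted p = 0.00881). Bak1, the partner of Bax in pore formation, was lower in the clone under RA, at a log2 difference of -2.15 ± 0.35 (adjusted p = 0.00602), and Bad was higher by 1.08 ± 0.28 (adjusted p = 0.0318). Without replicate 1 of the clone under RA, Bcl2l11 (adjusted p = 0.00186) and Bak1 (0.0173) kept their calls under RA, and Bcl2 (0.0916) and Bad (0.103) missed. Between RA and untreated cells of either line, only Bik in the clone was called in this list, at least 8.18-fold higher under RA (adjusted p = 0.0117, or 0.0235 without replicate 1 of the clone under RA) from an untreated level not well above background.

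**Figure D3:**
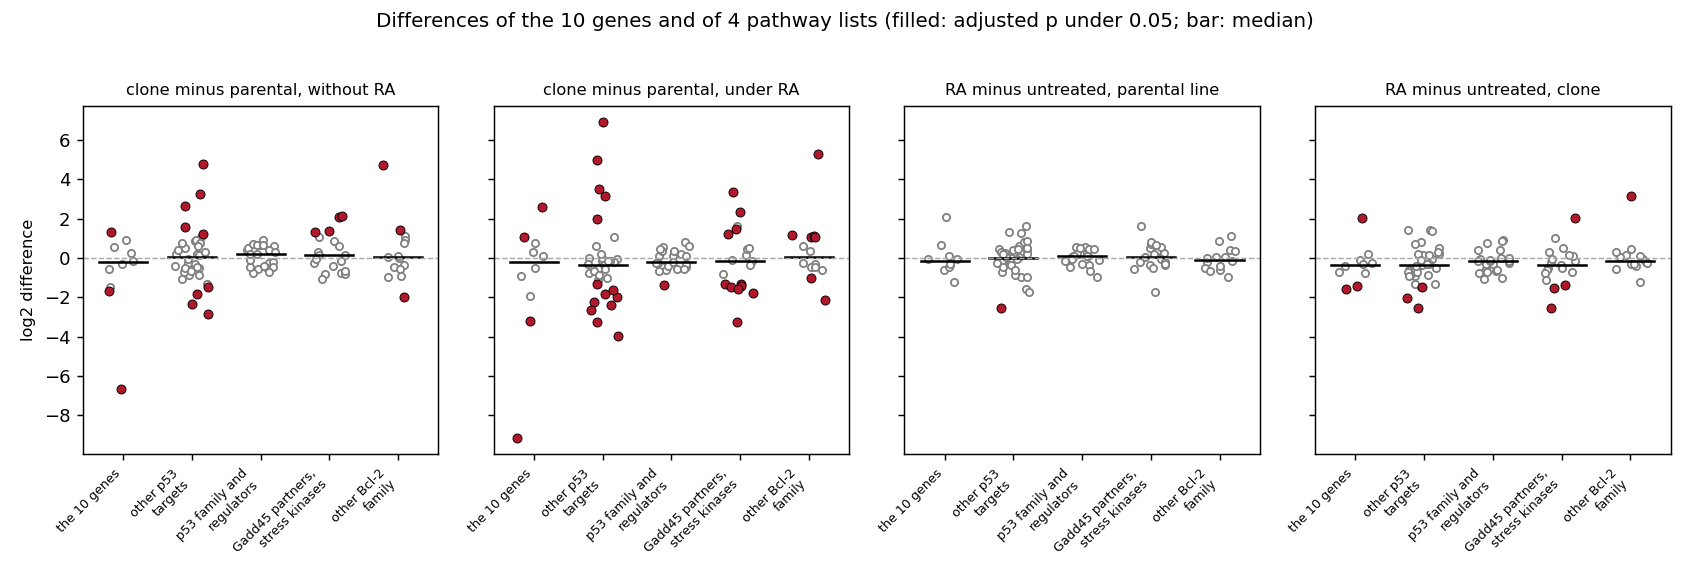
Log2 differences of the 10 genes and of the tested genes of the 4 lists for the line comparisons and the RA comparisons; each dot is a gene, each bar the median, and dots are filled where the adjusted p was under 0.05. Trp53i11 stands highest under RA at 6.94, and few genes are filled for RA in parental cells.

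**Figure D4:**
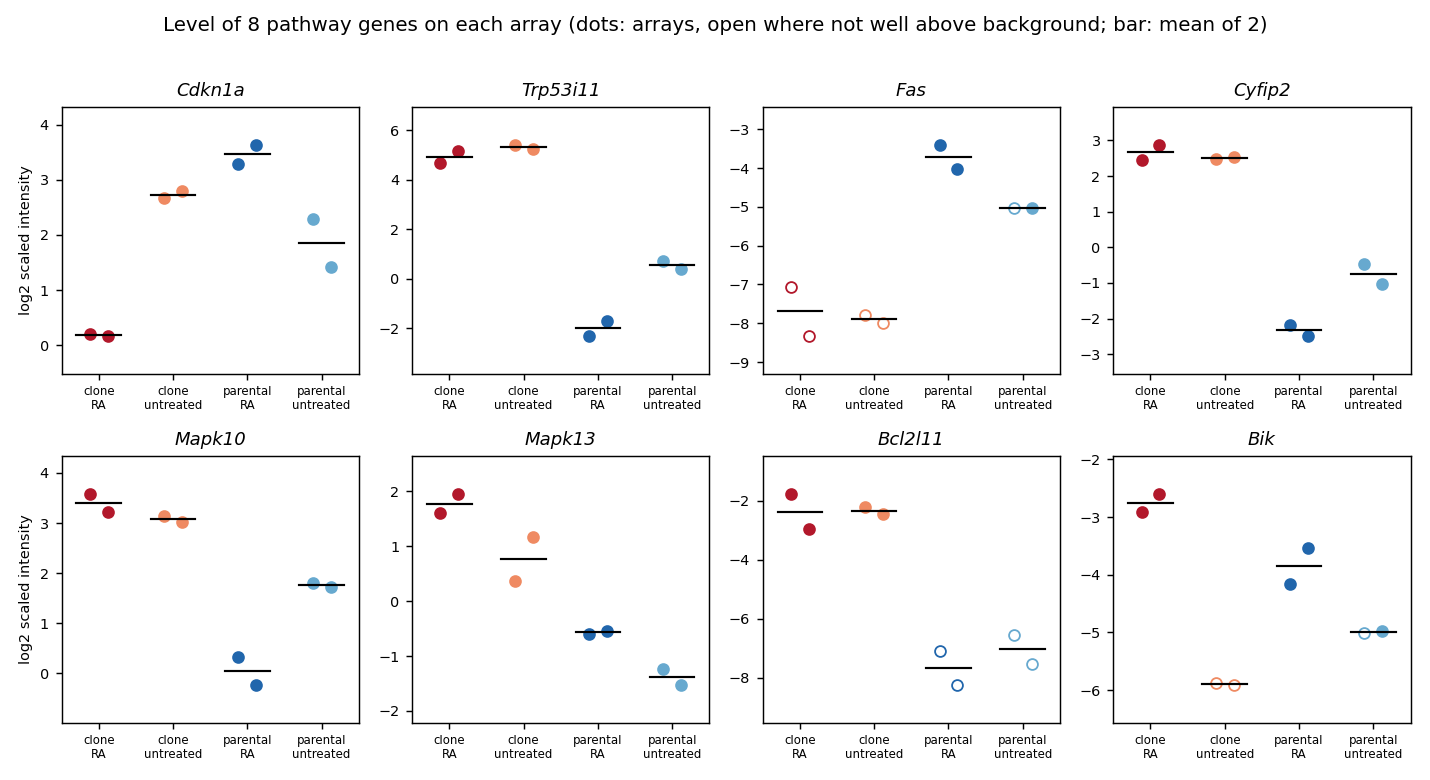
Level of 8 genes of the lists on every array, as log2 scaled intensity; dots are arrays, open where the probe was not well above background, bars are the mean of 2, and each panel has its own axis. Cdkn1a is near 0.2 on both clone RA arrays and above 1.4 on the other 6.

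Genes whose profile over the 8 arrays was most like a Gadd45 gene were looked up among 6445 candidates. For Gadd45g these were Cgas (Pearson r = 0.994), Stk16 (0.993) and Dmac2 (0.992), and Cgas averaged -3.90 in the clone under RA, -4.28 in the untreated clone, 1.26 in parental cells under RA and 0.04 in untreated parental cells. For Gadd45b they were Npas1 (0.994), Car6 (0.994) and Kdelr3 (0.987). For Gadd45a they were Ttll12 (0.986), Amacr (0.985) and Fhod1 (0.985), which all averaged highest in the untreated clone. The 8 points fall into 4 groups of shared line and treatment, so these values describe likeness of profile.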

How the data were processed

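RNA was measured on 8 one-colour arrays (Cy3) of the Agilent mouse design 028005. According to the file headers, Feature Extraction 10.7.3.1 had subtracted background from the deposited intensity values and removed spatial trends, and arrays were not scaled to each other. The series table holds deposited log2 values that differ from them by a constant for each array. Here log2 intensity minus each array's 75th percentile was used, control and outlier spots were left out, and spots of a probe were averaged. Probes were kept if 2 or more of the 8 arrays measured them well above background, and the brightest probe stood for each gene. A linear model with a mean for each group was fitted with limma (version 3.58.1, R version 4.3.3) over all 8 arrays, on 4 residual and 2.99 prior degrees of freedom. A difference was called where the Benjamini-Hochberg adjusted p over 26259 features, 15175 of them with a symbol, was below 0.05, and intervals are 95% intervals. The number of arrays limits the precision.

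The members and the 4 pathway lists were chosen with earlier results of these data known, so their counts are descriptions. All 10 members are named, with up to 4 called genes of smallest adjusted p from each list in a comparison, and not every comparison of each is given. A gene below background on every array of a group has only a bound, written as "at least". On each of those arrays it uses the dimmest signal that counts as measured, or the spot's own reading where that was brighter. That dimmest signal is not a strict detection limit. On untreated clone replicate 2 the unmeasured Bik spot read -5.90, above the dimmest measured level of -6.01. The adjusted p of such a gene tests the readings and not the bound. The alternatives tried were quantile normalization, normexp background correction (offset 50, on the median spot signal, because the tables hold no mean), the values of the series table, looser and stricter filters on dim probes, averaging all probes of a gene, a robust variance with a trend, fits to the compared groups alone, a block for the side of the slide, and omission of each array in turn.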

Additional observations from a re-analysis of the deposited data

Results flagged for a closer look

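Gadd45g was picked out because both RA arrays lay above both untreated arrays in parental cells, while both lay below them in the clone. The order in the clone was slight, at -3.99 and -4.17 under RA against -3.96 and -3.36 untreated. That difference did not pass (limma adjusted p = 0.533), so no opposite response was shown. The RA response of the clone minus that of parental cells was -2.51 on the log2 scale in limma (unadjusted p = 0.00146, adjusted p = 0.105), which did not pass. In the clone its intensity was near the low end of the scale, at 29.6 to 71.7, though well above background on all 4 clone arrays.

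Cdkn1a, the p21 gene, was picked out because the test of the difference itself passed. That test sets the arrays of slide row 2 against those of row 1, so response and slide row cannot be told apart. The RA response of the clone minus that of parental cells was -4.15 (limma adjusted p = 0.0417), with both RA arrays below both untreated arrays in the clone and above both in parental cells. It kept the call in 6 of 16 alternatives, with adjusted p between 0.00271 and 0.257 and values between -4.58 and -3.71. Without replicate 1 of the clone under RA it was -4.16 (adjusted p = 0.0536), and without replicate 2 of that group it was -4.13 (adjusted p = 0.0181).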

How the results depend on the processing

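The line differences of Gadd45g without and under RA, and of Gadd45b and Sesn1 under RA, kept their direction and call in all 17 alternatives, and the average line differences of Gadd45b, Gadd45g, Sesn1 and Phlda3 in all 16. The other calls did not. With no filter on dim probes, 1 of the 10 genes was called between the lines without RA, and 0 each for the average RA difference and RA in the clone, where this setting called 3.73%, 0.323% and 0% of all features. With normexp, RA in the clone called 1 and the average RA difference 0 (1.67% and 1.80% of all features), and with only the groups compared RA in the clone called 0, with 0% of all features. Quantile normalization called 2 for the average RA difference (4.59%). Probes above background on all arrays called 1 for RA in parental cells, 1 for the difference between the responses and 2 for the average RA difference (3.31%, 1.57% and 10.9%). A trended and robust variance called 1, 2 and 4 for these (3.05%, 1.73% and 9.27%). Leaving out 1 array at a time called 1 to 3 between the lines without RA, 3 to 3 under RA, 0 to 1 for RA in parental cells, 0 to 2 for RA in the clone, 0 to 0 for the difference between the responses, 4 to 5 for the average line and 0 to 1 for the average RA difference, while the share of all features ran over 2.98% to 12.1%, 14.5% to 27.8%, 0% to 2.49%, 0% to 11.6%, 0% to 3.84%, 17.1% to 34.6% and 0% to 12.2% in that order. Fewer arrays or genes change the adjustment by construction, and other causes were not tested.

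The differences that changed sign were not called. Mdm2 was 0.0447 with normexp and 0.0746 with quantile normalization for RA in parental cells. Quantile normalization also gave Mdm2 0.15 and Bbc3 0.26 for RA in the clone, Mdm2 0.0758, Bbc3 0.0867 and Phlda3 0.0840 for the difference between the responses, and Mdm2 0.11 for the average RA difference. It moved the median of all features by -0.14 for RA in the clone and by -0.26 between the lines under RA, and normexp moved it by -0.31 between the lines without RA and by -0.24 for RA in parental cells. Bbc3 was -0.0205 for the average RA difference in the series table. With 1 array left out, the line difference without RA ran over -0.60 to 0.00388 for Mdm2, -0.42 to 0.125 for Ccng1 and -0.0576 to 0.56 for Sesn1. The RA difference in parental cells ran over -0.145 to 0.0139 for Gadd45b, -0.57 to 1.93 for Trp53, -0.36 to 0.24 for Mdm2, -0.76 to 0.0213 for Bax, -0.13 to 0.37 for Bbc3 and -0.61 to 0.0305 for Sesn1. In the clone it ran over -0.40 to 0.80 for Trp53. The difference between the responses ran over -1.73 to 0.77 for Trp53, -0.52 to 0.0793 for Mdm2, -0.77 to 0.00927 for Bax and -0.47 to 0.0347 for Bbc3, and the average RA difference over -0.185 to 1.07 for Trp53 and -0.11 to 0.14 for Bbc3. The labels give no replicate numbers to pair arrays by. With slide side as a block, which takes 1 array of each group per side, the call of Gadd45b for RA in the clone ended (adjusted p = 0.0523), and the other calls of the 10 genes held.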
